A study of Mus musculus with 768 samples.

Results

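Expression was examined for the classical type cadherins Cdh4, Cdh7, Cdh8, Cdh9, Cdh10, Cdh11, Cdh12, Cdh13, Cdh18 and Cdh20 in single nuclei of mouse striatum. The genes were chosen by name, with earlier results of these data known. They are 10 of the 24489 genes of the joint count table, and all 10 had a row. Nuclei had been sorted into 768 wells, an equal number from mice of genotype Oprm1-Cre:H2BG and of genotype Slc32a1-Cre:H2BG, all untreated and of C57BL/6 background. In the first genotype Cre follows the mu opioid receptor gene, which marks the patches (striosomes) of the striatum, and in the second the vesicular GABA transporter gene, which marks GABAergic neurons. The allele that the labels name H2BG is carried by both genotypes, so no group lacks it. Each genotype filled 1 plate, and the sources used here name neither the number nor the age of the animals.

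A plate was therefore 1 sample, its nuclei are no replicates of a genotype, and no p-value was computed. Genotype, plate and animals cannot be told apart. Y-linked reads were found in 91% of kept Oprm1-Cre nuclei and 0% of Slc32a1-Cre nuclei, and Xist reads in 1.97% and 72.7%, so the sex of the animals also differed between plates. Shallow wells were dropped, 29 and 3 of them, and 736 nuclei remained with a median of 169398 (Oprm1-Cre) and 175337 (Slc32a1-Cre) reads on genes. By marker genes 497 nuclei were D1-like and resembled spiny projection neurons (SPNs) of the direct pathway, 84.8% of the Oprm1-Cre and 51.4% of the Slc32a1-Cre nuclei. D2-like nuclei, resembling SPNs of the indirect pathway, were 6.76% (24 nuclei) and 39.1%. Drd1 was read in all but 1 of the D1-like nuclei and Adora2a in all but 2 of the D2-like nuclei. Both are among the markers that named these classes, so these counts describe the classes and do not test them. Adora2a was also read in 42 Oprm1-Cre and 49 Slc32a1-Cre D1-like nuclei (17.04 and 15.41 CPM). Drd1 was read in 4 and 49 D2-like nuclei (13.58 and 15.48 CPM). The D1 marker Tac1 was read in 7 and 55 D2-like nuclei (7.5 and 213.5 CPM). Interneuron-like nuclei numbered 10 and 11 and most carried the interneuron genes Kit (all 10 and 10 of 11) and Nxph1 (8 and 10). Kit and Nxph1 are among the markers that named this class, and another of them, Lhx6, was read in 6 and 7 of its nuclei. The SPN marker Ppp1r1b was read in 9 of the 10 and 9 of the 11 (147.5 and 200.2 CPM). SPN-like nuclei are the D1-like and D2-like ones plus 20 and 25 of undecided type. The median mean log2(CPM + 1) of SPN markers was 2.67 and 3.11 in interneuron-like nuclei and 8.86 and 8.69 in SPN-like ones.

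Classical cadherins are calcium-dependent adhesion molecules whose outer domains bind like molecules on the neighbouring cell and whose tails bind catenins. Type II members bind several relatives as well as themselves, and in the nervous system combinations of them sort neuron pools and match synaptic partners. In the striatum, patch and matrix neurons separate into compartments during development, while SPNs of both pathways stay intermingled within each compartment.

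The members differ at the start of the mature protein, where the adhesive arm docks by tryptophans into the partner molecule, and these sequences are shown because they divide the genes by type. Each line gives 36 coding bases of the mouse transcript in the GENCODE vM21 annotation (GRCm38), on the gene's own strand. They run from 4 codons before the cleavage site to 8 codons after it, with the tryptophan codons of the arm in capitals.
Cdh8: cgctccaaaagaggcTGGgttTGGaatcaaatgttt
Cdh9: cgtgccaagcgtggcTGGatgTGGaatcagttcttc
Cdh10: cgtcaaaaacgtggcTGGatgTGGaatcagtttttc
Cdh11: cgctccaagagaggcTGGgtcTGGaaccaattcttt
Cdh18: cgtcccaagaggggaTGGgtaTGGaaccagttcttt
Cdh7: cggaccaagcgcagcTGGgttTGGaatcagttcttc
Cdh12: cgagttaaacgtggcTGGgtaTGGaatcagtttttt
Cdh20: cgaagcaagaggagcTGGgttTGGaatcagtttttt
Cdh4: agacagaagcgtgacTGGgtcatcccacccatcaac
Cdh13: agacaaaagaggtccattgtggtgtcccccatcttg
The first 8 genes carried 2 such codons, at mature codons 2 and 4, which is the mark of type II cadherins. Cdh4 (R-cadherin, a type I cadherin) carried 1, and Cdh13 (T-cadherin, which is held to the membrane by a lipid anchor and has no catenin-binding tail) carried 0. Over whole coding sequences the 8 type II genes were 62.5% to 70.3% identical in pairs, with Cdh9 and Cdh10 the closest pair and Cdh8 with Cdh11 next at 68.1%.

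The genes lie in groups on the mouse genome (GRCm38, whole gene spans). Cdh9 (chr15:16728756-16857094), Cdh10 (chr15:18818947-19014236), Cdh12 (chr15:20449265-21589533) and Cdh18 (chr15:22549022-23474418) follow one another on the plus strand of chromosome 15. Cdh8 (chr8:99024471-99416471) and Cdh11 (chr8:102632095-102785642) lie on the minus strand of chromosome 8, and Cdh13 (chr8:118283733-119324921) on its plus strand. Cdh20 (chr1:104768529-104995481) and Cdh7 (chr1:109982431-110140157) are on chromosome 1 and Cdh4 (chr2:179442431-179899373) on chromosome 2, all on the plus strand. Their spans run from 128.3 kb (Cdh9) to 1140 kb (Cdh12). Neighbours on chromosome 15 did not share a level, since Cdh9 was the highest member per kilobase of annotated exon in D1-like nuclei and Cdh12 among the lowest.

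Levels are reads of a class summed per plate and given per 1000000 reads (CPM) with an exact Poisson 95% interval. Beside each stands the share of nuclei with a read after every nucleus was thinned to 50000 reads, with an exact Clopper-Pearson 95% interval. Both intervals cover counting error only, since reads without molecular identifiers are not independent molecules and the spread between animals is unknown. Values are given for the Oprm1-Cre plate first and the Slc32a1-Cre plate second unless a plate is named. Genes that SPNs should lack set the background of the shares: Pthlh, Slc17a7 and Aqp4 were each read in at most 1.34% of thinned D1-like nuclei of either plate.

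Cdh8, a synaptic type II cadherin, was the most widely read member. In D1-like nuclei it stood at 313.6 and 337.4 CPM, read in 81.9% (77.1 to 86.1) and 77.95% (71.5 to 83.6) of nuclei. Single D1-like Oprm1-Cre nuclei ran from 0 to 2471 CPM with a median of 190.6, and the Slc32a1-Cre ones from 0 to 2403 with a median of 193.6. Most nuclei carried the gene, and the intervals of the shares overlapped between plates. In D2-like nuclei Cdh8 was at 168.7 CPM, a value from 24 nuclei, and at 323.8 CPM, with shares of 75% (53.3 to 90.2) and 78.5% (71.1 to 84.8).

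Cdh9, known for matching partners at hippocampal and retinal synapses, was read in 65.9% (60.2 to 71.3) and 68.7% (61.7 to 75.2) of D1-like nuclei. Its level there was between 196.4 and 203.9 CPM in the Oprm1-Cre plate and between 308.2 and 319.9 CPM in the other, and in single nuclei the median was 66.6 and 134.4 CPM. The shares overlapped in their intervals while the level per nucleus was lower in the Oprm1-Cre plate. In D2-like nuclei the order was the other way, 261.8 against 183.6 CPM, but 1 of the 24 nuclei held 43.9% of the reads. Without the nucleus with the most reads on each side the log2 ratio of the plates there went from 0.50 to -0.07.

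Cdh11, first described in bone-forming cells and also made by neurons, stood at 149.9 and 131.5 CPM among D1-like nuclei, read in 55.9% (50.02 to 61.6) and 42.1% (35.04 to 49.3). Its D2-like levels were 102.8 and 161.7 CPM. Cdh10, the closest relative of Cdh9 here, stood at 69.4 and 65.8 CPM among D1-like nuclei, read in 28.1% and 24.6%, and at 82.2 and 53.1 CPM in D2-like nuclei. Both were carried by fewer nuclei than Cdh8 and Cdh9 in both SPN types of both plates.

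Cdh18 was the member with the widest excess in D1-like nuclei of Oprm1-Cre mice. It stood at 74.5 CPM (72.3 to 76.9) there, read in 36.5% (30.99 to 42.2), against 25.5 CPM (23.9 to 27.2) and 12.3% (8.05 to 17.8) in Slc32a1-Cre nuclei. The level and the share differed in the same direction, and their intervals did not overlap. A single nucleus held 27% of the Slc32a1-Cre reads, against 5.78% of the Oprm1-Cre reads. In D2-like nuclei the level was 19.9 and 20.9 CPM.

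Cdh7 was different in the other direction. It was at 18.9 CPM (17.8 to 20.1) and 85.7 CPM (82.7 to 88.8) in D1-like nuclei, a 4.54-fold difference, with shares of 10.7% (7.44 to 14.8) and 33.9% (27.2 to 40.95). Before thinning, 46 and 70 of the D1-like nuclei had a Cdh7 read. In D2-like nuclei it was at 27.6 and 77.2 CPM, but there the shares were 33.3% (15.6 to 55.3) and 25.5% (18.7 to 33.3). These intervals overlapped, and the first rests on 8 of 24 nuclei, so a difference in share was neither shown nor excluded. The 5 nuclei with the most reads held 59% of the D2-like Slc32a1-Cre reads. The highest D2-like nucleus reached 177.8 CPM for Oprm1-Cre and 2128 CPM for Slc32a1-Cre.

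Cdh12 was low, at 13.2 and 24.6 CPM in D1-like nuclei (read in 7.69% and 11.3%), and among D2-like nuclei at 8.73 and 40.5 CPM. The 5 nuclei with the most reads carried 66.2% and 68.95% of its D1-like total. Cdh20 was all but absent from SPN-like nuclei. Its 68 reads in the Oprm1-Cre plate came from a single D1-like nucleus at 361.8 CPM. It had 0 reads in 370 SPN-like Slc32a1-Cre nuclei, where 3 counts would be a share of 0.811% and the exact upper bound after thinning is 0.995%.

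Cdh4, the type I member, was at 14.3 CPM (13.3 to 15.3) and 36.3 CPM (34.3 to 38.3) in D1-like nuclei, read in 7.36% (4.67 to 10.9) and 13.9% (9.33 to 19.5). In D2-like nuclei it was at 109.1 and 18.3 CPM, and the first value rests on 5 of 24 nuclei, 1 of which held 47.8% of the reads. Cdh13, the lipid-anchored member, was between 208.2 and 215.9 CPM and between 199.8 and 209.2 CPM in D1-like nuclei, read in 57.2% and 58.97%. Its levels in D2-like nuclei were 138.9 and 56.1 CPM, read in 37.5% (18.8 to 59.4) and 24.2% (17.5 to 31.9).

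**Figure D1:**
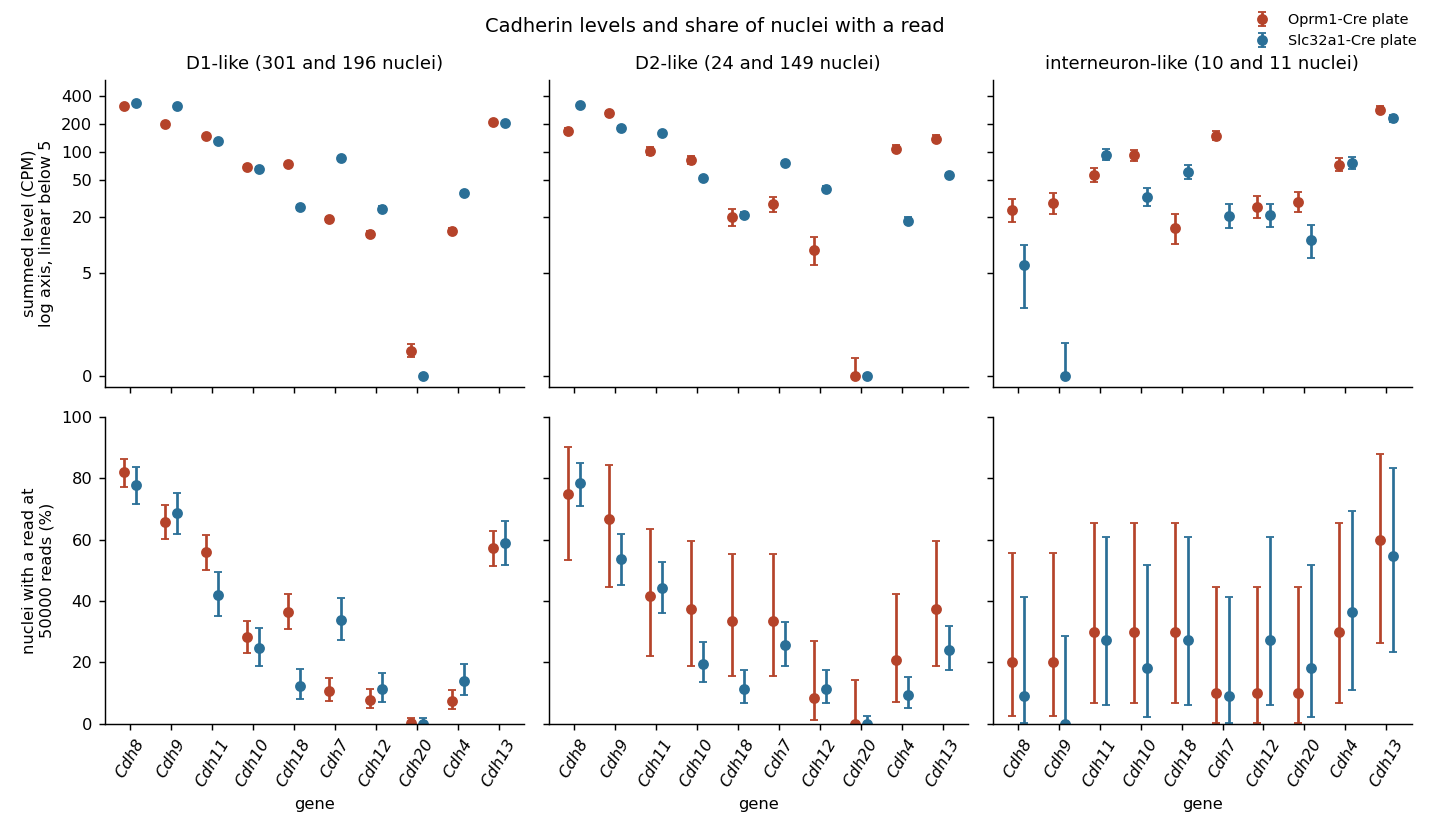
Summed level in CPM (top, log axis that is linear below 5) and share of nuclei with a read at 50000 reads (bottom, percent) for each cadherin in D1-like, D2-like and interneuron-like nuclei. Points are plates and bars are exact 95% counting intervals. Cdh8 is read in 81.9% and 77.95% of D1-like nuclei, while Cdh18 and Cdh7 part between plates in opposite directions.

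Levels of different genes were compared per kilobase of annotated exon. In D1-like nuclei the order in the Oprm1-Cre plate was Cdh9 (56.6 CPM per kb), Cdh8 (40.5), Cdh13 (18.9), Cdh11 (16.8), Cdh18 (16.4), Cdh10 (6.91), Cdh12 (2.09), Cdh4 (1.97), Cdh7 (1.88) and Cdh20 (0.306). For Slc32a1-Cre nuclei it was Cdh9 (88.7 CPM per kb), Cdh8 (43.6), Cdh13 (18.2), Cdh11 (14.8), Cdh7 (8.54), Cdh10 (6.55), Cdh18 (5.61), Cdh4 (4.997), Cdh12 (3.89) and Cdh20, which had no read. The first 4 places were the same, and the values of neighbours within them did not cross between plates. Below them Cdh18 changed places with Cdh7 and Cdh10, Cdh7 with Cdh10, Cdh12 and Cdh4, and Cdh12 with Cdh4. The plates differ in genotype and sex and are no replicates, so these changes of order measure no spread. Cdh18 and Cdh10 stayed above Cdh12 and Cdh4 in both plates. In D2-like Slc32a1-Cre nuclei Cdh13 (4.998 CPM per kb) stood below Cdh11 (18.2), Cdh7 (7.69) and Cdh12 (6.42).

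**Figure D2:**
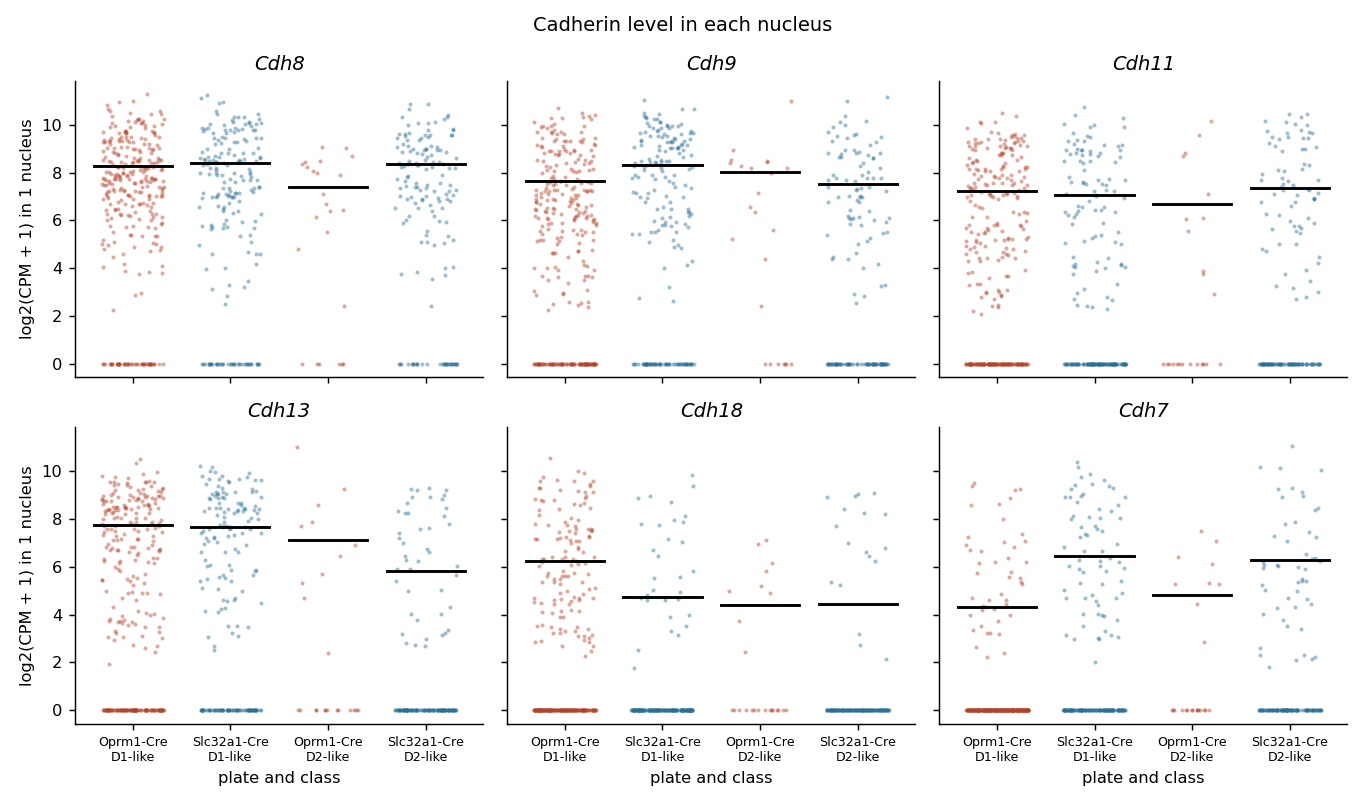
Level of 6 cadherins in every D1-like and D2-like nucleus, as log2(CPM + 1) on the vertical axis, by plate and class. Each point is a nucleus, points at 0 have no read, and the black line is the summed level of the group. Nuclei with a read spread over a wide range in each group, while the number at 0 differs, as for Cdh18 (43.9% against 15.8% of D1-like nuclei with a read, without thinning).

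Single nuclei held several members at once. After thinning, the median D1-like nucleus had reads of 4 members in the Oprm1-Cre plate and 3 in the other, with a range of 0 to 7 in both. Cdh8, Cdh9, Cdh11 and Cdh13 were all read in 22.1% and 14.4% of D1-like nuclei, and none of them in 2.34% and 1.54%. The median D2-like Slc32a1-Cre nucleus had 3 members, and all of the 4 genes were read in 6.71%.

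Some pairs of members met more or less often than their single shares, and the pairs given here are examples out of all pairs. Among D1-like Oprm1-Cre nuclei, Cdh11 was read in 58.8% of those with a Cdh8 read and in 42.6% of those without. The same shares were 43.4% and 37.2% in D1-like Slc32a1-Cre nuclei and 44.4% and 43.8% in the D2-like ones. Cdh18 was read in 21.9% of D1-like Oprm1-Cre nuclei with a Cdh7 read and in 38.2% of those without, and in 6.06% and 15.5% of the Slc32a1-Cre ones. These Cdh18 shares rest on 7 and 4 nuclei with both genes. Another pair differed by more for Oprm1-Cre and went the other way for Slc32a1-Cre. Cdh7 was read in 31.8% of D1-like Oprm1-Cre nuclei with a Cdh4 read and in 9% of those without. For Slc32a1-Cre these shares were 25.9% and 35.1%, with 7 nuclei holding both genes in each plate. None of the differences between shares was tested.

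The first comparison was Oprm1-Cre over Slc32a1-Cre within D1-like nuclei, which sets nuclei of an Oprm1 driver beside those of a general GABAergic driver. Ratios are log2 with 5 CPM added to both sides, which understates low genes. A gene was considered when it had at least 5 CPM on either side, and was called past a log2 of 1. Of the members, 9 reached that level and Cdh20 did not. Of these, Cdh18 was called higher (log2 1.38) and Cdh4 (-1.10) and Cdh7 (-1.93) lower. Over the 11029 genes with that level 2.82% were called higher and 1.90% lower, and 4.71% in either direction. As the members were chosen with earlier results known, such shares, here and below, give a scale and do not test the set. The members' median was -0.10, and the median of all genes was near 0. The other 6 members lay between -0.70 (Cdh12) and 0.18 (Cdh11), with Cdh8 at -0.10, Cdh13 at 0.05 and Cdh9 at -0.64.

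The D1-like calls differed in firmness over 14 alternatives. Here and below, alternatives that changed only the minimum level for considering a gene or the limit of a call could not move a ratio. Clusters made without the members gave classes of the same sizes. Counts of alternatives passed therefore include some that could not fail. Cdh7 and Cdh18 kept their direction and stayed past 1 in 14 of 14 alternatives, at -2.12 to -1.44 and 1.05 to 1.67. Cdh4 did so in 12 of 14 and was at -0.71 with 20 CPM added. Levels of all 3 also varied along a patch-minus-matrix score, described further on, whose median in D1-like nuclei was 0.09 for Oprm1-Cre and -4.03 for Slc32a1-Cre. Plate, sex and score cannot be told apart over all nuclei.

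In D2-like nuclei 2 members were called higher in the Oprm1-Cre plate (Cdh4 at 2.29 and Cdh13 at 1.24) and 2 lower (Cdh7 at -1.33 and Cdh12 at -1.73) of 9. The background was wide there, with 9.24% of 10974 genes called higher and 14.3% lower (23.6% in either direction), as only 24 nuclei stand on one side. Without the nucleus with the most reads on each side, Cdh13 was at 0.80, Cdh8 at -1.14 and Cdh11 at -1.01, and Cdh4 was still at 1.72. Cdh7 was thus lower for Oprm1-Cre in both SPN types, but at -0.71 in D2-like nuclei with a class score limit of 1. Cdh18, 1.38 in D1-like nuclei, was at -0.06 in D2-like nuclei. Whether the SPN types differ in these ratios was not tested.

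The second comparison was D1-like over D2-like nuclei within a plate. For Slc32a1-Cre, Cdh13 was the only member of 9 called, at 204.5 against 56.1 CPM (log2 1.78), with shares of 58.97% against 24.2%. Over 10908 genes 3.63% were called higher in D1-like nuclei and 1.98% lower (5.61% in either direction). The ratio stayed between 1.56 and 1.87 in all 14 alternatives. Its highest D2-like nucleus reached 633 CPM and its highest D1-like nucleus 1204 CPM. The other 8 members lay between -0.62 (Cdh12) and 0.82 (Cdh4), with Cdh8 at 0.06 and Cdh9 at 0.76.

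For Oprm1-Cre, Cdh13 was higher in D1-like nuclei by less (log2 0.59), and 1 of the 24 D2-like nuclei held 35.1% of its reads. Without the nucleus with the most reads on each side it was at 1.10. There Cdh18 (1.68) was called higher and Cdh4 (-2.56) lower in D1-like nuclei, against a background of 16.3% higher and 6.62% lower (22.9% in either direction) of 11114 genes, and all genes had a median of 0.10. The Cdh4 value is that of the 5 D2-like nuclei named above.

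**Figure D3:**
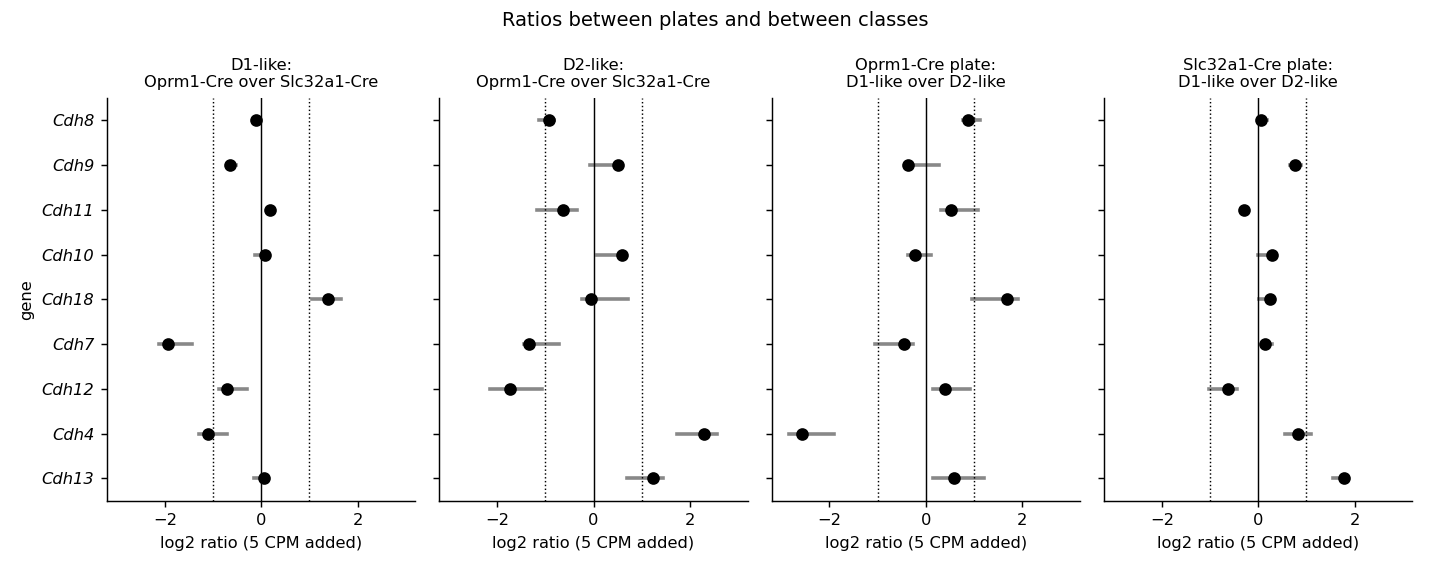
Log2 ratio (horizontal axis, 5 CPM added) of each cadherin between plates in D1-like nuclei, between plates in D2-like nuclei, and between D1-like and D2-like nuclei in each plate. Black points are the reported values, grey bars span 14 alternatives, and dotted lines mark the limit of 1. In D1-like nuclei Cdh18 (1.38) and Cdh7 (-1.93) stay past the limit on opposite sides, and Cdh13 (1.78) is past it between classes of the Slc32a1-Cre plate.

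The third comparison ordered the nuclei of a class and plate by a patch-minus-matrix score, the mean log2(CPM + 1) of 10 patch genes less that of 8 matrix genes, none of them a cadherin. The nuclei were cut into 3 groups of like size. Patch-leaning D1-like Oprm1-Cre nuclei had 71.6 CPM of Oprm1 and 22.9 CPM of Epha4, and matrix-leaning ones 13.5 and 426.5 CPM. Oprm1 is among the patch genes of the score and Epha4 among its matrix genes, so these values describe the groups and do not test them. Few Slc32a1-Cre nuclei were patch-like: even their patch-leaning D1-like group had 6.90 CPM of Oprm1 and 191.7 CPM of Epha4. The groups therefore cover different stretches of the score in the 2 plates.

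Cdh7 was lower in the patch-leaning D1-like nuclei of both plates. It was at 35.8 CPM in matrix-leaning, 15.2 in middle and 6.02 CPM in patch-leaning Oprm1-Cre nuclei (log2 -1.89), with shares of 18%, 7.92% and 6.12%. For Slc32a1-Cre it was at 116.8, 111.8 and 21.4 CPM (log2 -2.20), with shares of 41.5%, 31.8% and 28.1%. Level and share had the same order in both plates. With the nuclei cut into an upper and a lower group only, the ratios were -0.99, short of the limit, and -1.25. In D2-like Slc32a1-Cre nuclei the order of the level was reversed, 37.6 CPM in matrix-leaning and 120.2 CPM in patch-leaning nuclei (log2 1.56), while the share was 30.6% and 24.5%. There 1 patch-leaning nucleus held 41.6% of the reads, and with the same 2 groups the log2 ratio was 0.11.

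Cdh18 had the opposite order in D1-like nuclei. It was at 7.499, 16.95 and 55.9 CPM in matrix-leaning, middle and patch-leaning Slc32a1-Cre nuclei (log2 2.28), with shares of 6.15%, 6.06% and 25%. Oprm1-Cre nuclei had most of it in the middle group, with 43.4, 114.6 and 69.9 CPM (log2 0.63 between the outer groups) and shares of 26%, 49.5% and 33.7%. D2-like Slc32a1-Cre nuclei had 14.4 and 38.8 CPM in the outer groups (log2 1.17) and shares of 10.2% and 14.3%. With an upper and a lower group the ratios were 2.09, 0.10 and 0.77 in these 3 sets, so the D2-like call was lost.

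Cdh11 was higher in the patch-leaning group of all 3 sets of nuclei, with 185.6 against 86.8 CPM in D1-like Oprm1-Cre nuclei (log2 1.05, shares 63.3% and 46%). Its Slc32a1-Cre ratios were 0.66 (D1-like) and 0.63 (D2-like), short of the limit. With the nuclei cut into an upper and a lower group, the ratio was 0.34 in D1-like Oprm1-Cre nuclei and turned to -0.15 in D2-like nuclei. Cdh12 was at 29.9 CPM in matrix-leaning and 1.37 CPM in patch-leaning D1-like Oprm1-Cre nuclei (log2 -2.45), read in 18% and 2.04%, and reached the minimum level only through the matrix-leaning side. Its ratio in D1-like Slc32a1-Cre nuclei was -0.81. Cdh4 was lower in the patch-leaning groups, at -0.66 for Oprm1-Cre and at -2.18 and -1.20 in D1-like and D2-like nuclei for Slc32a1-Cre. Cdh10 was past the limit in D2-like nuclei alone (75.8 against 13.5 CPM, log2 2.13). With an upper and a lower group the Slc32a1-Cre ratios were -1.10 for Cdh4 in D1-like nuclei and 1.12 for Cdh10 in D2-like nuclei.

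Cdh8, Cdh9 and Cdh13 were not called between the outer groups of the score. Cdh8 was higher on the patch-leaning side, by 0.45, 0.37 and 0.35 in the same 3 sets of nuclei. Cdh9 lay between -0.32 and 0.32 and Cdh13 between -0.12 and 0.04, although the middle D2-like group had 24.6 CPM of Cdh13 against 73.2 and 67 CPM in the outer ones. In total 1 of 9 members was called higher and 2 lower in D1-like Oprm1-Cre nuclei, where 4.78% of genes were called higher and 5.08% lower (9.87% in either direction). The count was 1 and 2 in D1-like Slc32a1-Cre nuclei (8.48% and 8.34% of genes, 16.8% in either direction) and 3 and 1 in D2-like ones (12.2% and 10.9%, 23.1% in either direction). Patch-leaning D1-like nuclei were also shallower, with a median of 168278 against 179130 reads for Oprm1-Cre and 158497 against 193466 for Slc32a1-Cre, as were the D2-like ones (172450 against 220221 reads). The part of depth in the levels was not tested.

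**Figure D4:**
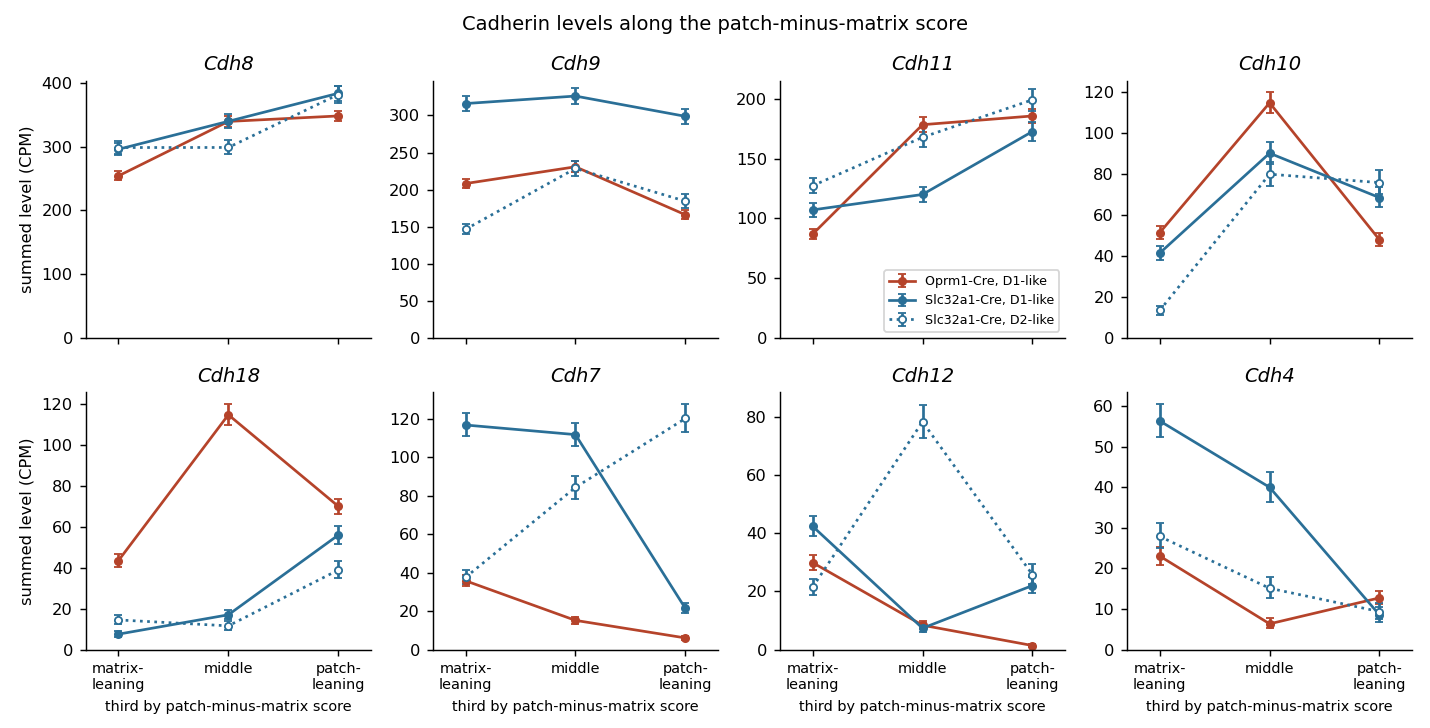
Summed level in CPM (vertical axis) of 8 cadherins in nuclei grouped by the patch-minus-matrix score, for D1-like nuclei of both plates and D2-like Slc32a1-Cre nuclei, with exact Poisson 95% intervals. Cdh7 is lowest in the patch-leaning D1-like nuclei of both plates (6.02 and 21.4 CPM), and Cdh11 is highest there. Cdh8 and Cdh9 stay within a log2 of 0.45 between the outer groups.

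To set the plates side by side at like scores, D1-like nuclei with a score between -4 and -1 were taken, 90 for Oprm1-Cre (median score -2.02) and 73 for Slc32a1-Cre (median -2.88). Cdh7 was still lower for Oprm1-Cre, at 20.4 against 61.3 CPM (log2 -1.39), though it was read in 27.8% and 31.5% of these nuclei without thinning. Cdh18 was at 51.2 against 43.8 CPM (log2 0.20) and read in 36.7% and 15.1%, so the level no longer stood apart while the share did. This range was put through none of the alternatives, so the weight of single nuclei in it was not tested. In patch-leaning D1-like Slc32a1-Cre nuclei, with scores of -3.02 to 3.09, 1 nucleus held 40% of the Cdh18 reads. Cdh4 was at -0.56. Cdh12 was called higher (log2 1.10), and with Cdh7 it made 1 member higher and 1 lower of 9, where 8.70% of 11143 genes were called higher and 5.91% lower (14.6% in either direction). Even in this range the median score was higher for Oprm1-Cre, so score and plate were not fully parted.

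The fourth comparison set interneuron-like nuclei against SPN-like nuclei of the same plate. The interneuron-like nuclei were of different kinds: Th was at 100 CPM or more in 10 of 10 Oprm1-Cre and 4 of 11 Slc32a1-Cre nuclei, and Pthlh in 0 of 10 and 8 of 11. Pvalb reached that level in 3 and Chat in 1 of the Slc32a1-Cre nuclei, and Sst and Npy in none of either plate. Kind and plate cannot be told apart. The background was wide in this comparison, of few nuclei and of different cell classes. Over 11493 genes 19.5% were called higher and 34.3% lower for Oprm1-Cre (53.9% in either direction), and over 11440 genes 17.9% and 28.5% for Slc32a1-Cre (46.4% in either direction). Medians over all genes were -0.27 and -0.11.

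Cdh8 and Cdh9, the leading SPN cadherins, were low in interneuron-like nuclei. Cdh8 stood at 23.6 CPM (17.5 to 31.1) against 295.7 CPM in SPN-like nuclei for Oprm1-Cre and at 6.01 CPM (3.29 to 10.1) against 322.3 CPM for Slc32a1-Cre (log2 -3.40 and -4.89). Cdh9 was at 28.3 against 201.2 CPM (log2 -2.63), and at 0 reads in 11 nuclei against 251.2 CPM, where 3 reads would be 1.29 CPM. A Cdh8 read was found in 2 of 10 and 3 of 11 nuclei, and a Cdh9 read in 3 and 0. Both members stayed past the limit on the low side in all 14 alternatives of both plates.

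Cdh13 was near the SPN level, at 286.4 CPM (264.1 to 310.1) against 207.7 and at 231.5 CPM (212.4 to 251.9) against 155.2 (log2 0.45 and 0.56). Without the nuclei with the most reads its ratios were -0.43 and 0.16, so the Oprm1-Cre direction turned on 1 nucleus, which held 55.1% of the reads. It was read in 7 of 10 and 6 of 11 nuclei, with up to 1267 and 838 CPM in one nucleus. Cdh4 was higher in both plates, 73.02 against 22.4 CPM (log2 1.51) and 76.5 against 28.01 CPM (log2 1.30), and was read in 6 and 5 nuclei. Without the nuclei with the most reads these Cdh4 ratios were 0.72 and -0.03. Cdh20, at its highest here with 29.2 and 11.2 CPM, was read in 2 nuclei of each plate and reached the minimum level only through them.

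Cdh7 and Cdh18 were called in opposite directions in the 2 plates, and the calls on the high side rested on single nuclei. Cdh7 was at 149.3 against 20.1 CPM for Oprm1-Cre (log2 2.62), all of it from 1 nucleus at 1199 CPM that carried Th, Nos1 and Nxph1, and without the nuclei with the most reads the ratio was -2.18. For Slc32a1-Cre it was at 20.6 against 77.7 CPM (log2 -1.69), all from 1 nucleus, without which it was lower still (-3.94). Cdh18 was at 15.1 against 73.6 CPM (log2 -1.97) for Oprm1-Cre, read in 3 nuclei and past the limit in 14 of 14 alternatives. It was at 61 against 23.1 CPM (log2 1.23) for Slc32a1-Cre, where 1 nucleus had 526 CPM and the ratio without the nuclei with the most reads was -1.40. Cdh11 was at 57 against 152.3 CPM (log2 -1.34) and 93.2 against 152.7 CPM (log2 -0.68), and the direction turned in both plates, to 0.27 and 1.14, when each nucleus was classed alone. Cdh10 (0.40 and -0.84) and Cdh12 (0.70 and -0.44) were not called, and without the nuclei with the most reads their Oprm1-Cre ratios were -0.20 and -1.61. In total 3 of 10 members were called higher and 4 lower for Oprm1-Cre, and 3 and 3 for Slc32a1-Cre. Without the nucleus with the most reads of each gene on each side, 0 were called higher in either plate.

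**Figure D5:**
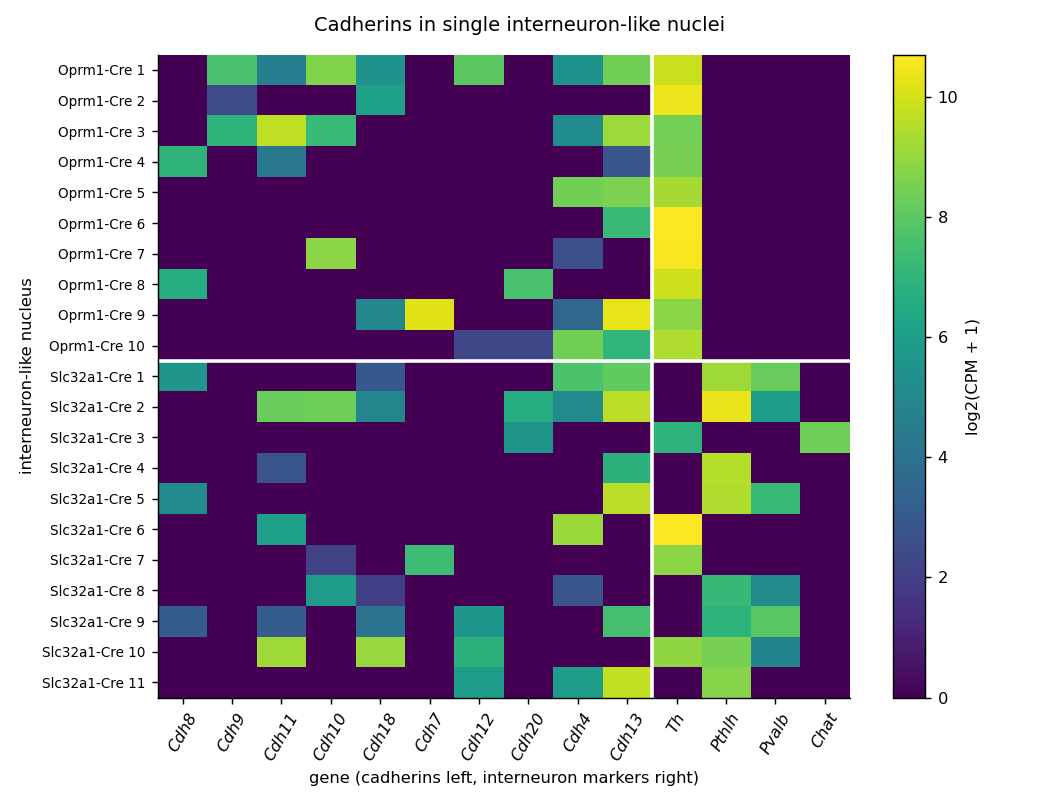
Level of each cadherin and of 4 interneuron marker genes in the 10 and 11 interneuron-like nuclei, 1 row per nucleus and 1 column per gene, colour showing log2(CPM + 1). Cdh8 and Cdh9 are at 0 in most rows, Cdh13 is read in 7 and 6 nuclei, and Cdh7 appears in 1 nucleus of each plate. Th fills the upper rows and Pthlh most of the lower ones.

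Other genes of the pathway were taken from 2 lists, and none was called between plates in D1-like nuclei. Of 10 other classical cadherins 4 reached the minimum level in D1-like nuclei (Cdh2, Cdh6, Cdh15 and Cdh22), and 0 were called. Of 17 catenins and partners 15 reached it and 0 were called, against the background of 4.71% given above. In D2-like nuclei 0 of 4 other cadherins were called between plates, and of 15 catenins and partners 1 was higher for Oprm1-Cre and 4 were lower, where 23.6% of genes were called. These were Vcl (vinculin, which binds alpha-catenin, log2 1.21), Pkp4 (a p120 relative, -1.83), Adam10 (a protease that cuts cadherins, -1.46), and Arvcf (another p120 relative) and Ctnna3 (an alpha-catenin), which had 0 reads in the 24 Oprm1-Cre nuclei against 10.2 and 5.13 CPM. Ctnnb1 (beta-catenin, which links the tail of type I and type II cadherins to alpha-catenin) was at 211.5 and 238.9 CPM, Ctnna2 (the neuronal alpha-catenin) at 30.9 and 32.8 CPM, and Ctnnd2 (delta-catenin, a neuronal p120 relative) between 131.9 and 138.1 CPM and at 175.9 CPM. Between classes, Cdh22, singled out after its values were seen, was higher in D1-like nuclei of both plates, at 43.04 against 9.45 CPM (log2 1.73) and 30.3 against 4.96 CPM (log2 1.83). For Slc32a1-Cre 0 of 15 catenins and partners were called between D1-like and D2-like nuclei, where 5.61% of genes were called in either direction. For Oprm1-Cre, with 24 D2-like nuclei, 5 of 15 were called higher and 1 lower, where 16.3% of genes were called higher and 6.62% lower.

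The genes with the most similar pattern were sought over 13 sums, each of 1 plate and 1 SPN-like cluster, among 7981 genes with at least 20 CPM, by Pearson's r of log2(CPM + 5). The sums share plates, depth and clusters made in part from these genes, so r is a description. Nearest to Cdh8 were Men1 (r 0.85), Rbm12 and Slc35e4. Nearest to Cdh9 were Zfp81 (r 0.84), Abhd13 and Lpcat4. For Cdh10 they were E430025E21Rik (r 0.94), Lrrn3 and Ptprj. The highest r belonged to Cdh11, whose nearest were the gene listed as X0610037L13Rik (r 0.95), Slc4a10 and X4933434E20Rik. Nearest to Cdh18 were Clip1 (r 0.90), Tenm1 and Clec2l, and nearest to Cdh7 were B230209E15Rik (r 0.88), Igfbp6 and Igfbp4. For Cdh12 they were Nudcd2 (r 0.74), Nae1 and Ints4. Cdh4 lay closest to Siae (r 0.88), Tceb1 and Btbd10, and Cdh13 to Pik3r4 (r 0.85) and Mgrn1. No cadherin was among the 3 nearest genes of another.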

How the data were processed

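Single-nucleus libraries of 2 plates of 384 wells were analysed from the joint table that the authors deposited, which holds read counts in whole numbers for each gene and well. Per the submitters' processing notes the build was mm10 and SAMtools and Seurat were used. Aligner, counting tool, annotation, strand setting and the counting of intron reads are not stated in the sources used here. Reads of genes that overlap 8 of the members could therefore not be told from the members' own. Per the labels' protocols the library kit is one for bulk total RNA. The 92 spike-ins and the reporter row were left out.

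Wells with at least 20000 reads and 1000 genes were kept, 355 for Oprm1-Cre and 381 for Slc32a1-Cre. Log-transformed counts per 10000 of the 2000 most variable genes were reduced to 30 principal components and clustered by Leiden (resolution 1, 15 neighbours) with leidenalg 0.10.2, igraph 0.11.9, scikit-learn 1.9.0, pandas 2.3.3, scipy 1.17.1 and numpy 2.4.6 under Python 3.11.15. Of 8 clusters 7 were SPN-like (mean log2(CPM + 1) of 10 SPN markers at least 3) and 1 interneuron-like. SPN-like nuclei were D1-like (301 and 196) or D2-like (24 and 149) where 7 D1 and 7 D2 markers differed by more than 2. Names were rebuilt from markers, and of 28 nuclei with an interneuron-like score of their own 10 lay in SPN-like clusters. No doublet caller was run, and 29 possible doublets were left out in an alternative.

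Reads of a class were summed per plate. Thinning to 50000 reads left out 2 and 1 shallower D1-like nuclei. The calculation of ratios was tested on simulated Poisson counts of whole plates, and thinning on a known count. Clustering, classes, groups of few nuclei and reads held by single nuclei were not simulated. The members and gene lists were chosen with earlier results of these data known. Named were all members, beta-, alpha- and delta-catenin, list genes past the limit between plates, Cdh22, chosen after its values were seen, and the 3 nearest genes per member, 1 of which is not reported here. The score range of -4 to -1, the log2 limit of 0.5, clusters made without the members and equal weights along the score were chosen after seeing the data.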

Additional observations from a re-analysis of the deposited data

Results flagged for a closer look

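Cdh4 went opposite ways between plates in the SPN types: the log2 ratio of the Oprm1-Cre over the Slc32a1-Cre plate was -1.10 in D1-like nuclei and 2.29 in D2-like nuclei, where 5 of 24 nuclei stand behind the Oprm1-Cre level. The difference between the SPN types was not tested.

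Cdh7 went opposite ways between plates in interneuron-like over SPN-like nuclei, at 2.62 in the Oprm1-Cre and -1.69 in the Slc32a1-Cre plate, with 1 nucleus carrying the reads on each interneuron-like side. Cdh18 did so the other way round, at -1.97 and 1.23, but without the nucleus with the most reads both values were low (-2.43 and -1.40). Neither difference was tested, and the kinds of interneuron-like nuclei differ between the plates.

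Cdh7 also went opposite ways along the patch-minus-matrix score in the Slc32a1-Cre plate, at -2.20 in D1-like nuclei and 1.56 in D2-like nuclei. The difference was not tested, and in D2-like nuclei the share with a read went against the level.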

How the results depend on the processing

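No paired analysis was possible because each genotype is 1 plate and wells carry no replicate numbers that pair them. Of the values recomputed for single members 844 (80.8%) stayed within counting error of the reported one, 18.8% moved by more and 5 reversed from a called value, and 31 counts of called members moved by over 1.5 times. These are given with the direction called, and where nothing else is said the cause was not tested. The 844 values include some under settings that could not move a ratio, such as a changed log2 limit.

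Between plates in D1-like nuclei, 1 member was lower with 20 CPM added or nuclei weighted alike, and 4 at a log2 limit of 0.5. In D2-like nuclei 1 was lower at a class score limit of 1, 1 was higher in wells with at least 100000 reads, 1 was higher and 4 lower without the nucleus with the most reads, and 4 and 4 at a limit of 0.5.

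For D1-like over D2-like nuclei among Oprm1-Cre nuclei, 0 were higher and 2 lower at a class score limit of 1, 3 were higher in wells with at least 100000 reads, 3 without the nucleus with the most reads and 4 at a limit of 0.5. For Slc32a1-Cre, 2 were higher with each nucleus classed alone, 1 was lower at a class score limit of 3, and 3 were higher and 1 lower at a limit of 0.5.

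For interneuron-like over SPN-like nuclei, 0 were higher in the Oprm1-Cre plate without the nucleus with the most reads. For Slc32a1-Cre, 1 was higher with 20 CPM added, 0 were higher and 7 lower without that nucleus, and 5 lower at a limit of 0.5. Reversed Oprm1-Cre values were Cdh11 at 0.27 (each nucleus classed alone) and 0.49 (wells with at least 100000 reads), and Cdh7 at -2.18 without the nucleus with the most reads. Without it the Slc32a1-Cre values of Cdh4 and Cdh18 were -0.025 and -1.40.

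Along the score, with an upper and a lower group in place of the outer ones, 0 members were higher and 1 lower among D1-like Oprm1-Cre nuclei and 1 was higher in D2-like nuclei, and with nuclei weighted alike 2 were higher in the former. Members read in 50% or more of nuclei numbered 2 in interneuron-like Oprm1-Cre nuclei at 20000 reads or without thinning, and 1 in D2-like Slc32a1-Cre nuclei at 20000 reads or with at least 5 reads required. Depth limits shares below a few percent, and levels from 10, 11 or 24 nuclei turn on single nuclei.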
